A study of Mus musculus with 14 samples.

Results

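Sqstm1 encodes p62, also called sequestosome 1, a receptor that carries ubiquitin-tagged cargo into autophagosomes. It was followed in mouse embryonic fibroblasts (MEFs), cells of connective tissue, as 1 transcript of 1399 listed in every library. Sqstm1 was chosen by values measured in these same libraries, its higher level with cysteamine and with CTNS knockdown. Contrasts that use those libraries or their control are therefore given as descriptions without a test. Polyadenylated RNA was sequenced in 14 libraries that formed 7 groups of 2, in a study of lysosomal cystine and sensitivity to ferroptosis, an iron-dependent form of cell death. The groups NT (no treatment), cysteine starvation and full amino acid starvation formed a first experiment. NT2 (no treatment), cysteamine, CTNS knockdown (cells that received sh-CTNS) and rescue (sh-CTNS plus a CTNS plasmid) formed a second. All groups carried the same wild-type genotype label and came from the same labelled cell line. Neither untreated group was labelled as transfected, so transfection and knockdown cannot be told apart. Doses, durations and ages were not labelled.

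Which untreated group served which treatments was read from the sample naming and is an assumption. Whether paired libraries of a group stem from separate cultures was not labelled. The p-values then measure only the spread between libraries, which may be technical. Ctns itself was not among the listed transcripts, so the knockdown could not be checked at its own transcript. These are bulk libraries, in which fewer cells of a type and less RNA per cell cannot be told apart.

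p62 binds ubiquitin on its cargo and LC3 on the growing autophagosome membrane, and it is itself degraded with the cargo, so its protein accumulates when autophagy or the lysosome is blocked. It also binds KEAP1, the adaptor that marks the transcription factor NRF2 for degradation, and so frees NRF2 to switch on antioxidant and iron-handling genes. The Sqstm1 gene is in turn switched on by NRF2, by the lysosomal regulator TFEB and by ATF4, the factor of the amino acid shortage response. Cystinosin, the product of Ctns, exports cystine from the lysosome. Cysteamine, a drug, empties lysosomes of cystine by another route. The libraries report the transcript only, not the protein or its turnover.

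The listed transcript was Sqstm1-201 (ENSMUST00000015981), 1 of 7 annotated for the gene, so isoforms could not be separated. In the GENCODE annotation of GRCm38 it lies at chr11:50199366-50210791 on the minus strand, with 8 exons, 2673 exonic bases and a coding stretch of 1212 bases before the stop codon. The coding stretch of Sqstm1-202, which was not listed, has 1326 bases, so the listed transcript is annotated with a shorter protein. Which part of p62 differs between them was not examined. The only other gene with a stretch of at least 50 bases at 95% identity or more was Mrnip, on the opposite strand, whose exons overlap those of Sqstm1 by 580 bases. The strand setting of the counting is not given in the sources used here, so reads from that stretch cannot be assigned to either gene.

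The promoter is shown because 3 of the factors that act on Sqstm1 read short DNA motifs near gene starts. It is the RefSeq promoter on GRCm38, chr11:50210792-50211070, minus strand, running from 250 bases before the RefSeq start to the base before the GENCODE start, which lie 29 bases apart. Capitals mark GC boxes (GGGCGG on either strand) and a TATA box (TATAAA).
Sqstm1: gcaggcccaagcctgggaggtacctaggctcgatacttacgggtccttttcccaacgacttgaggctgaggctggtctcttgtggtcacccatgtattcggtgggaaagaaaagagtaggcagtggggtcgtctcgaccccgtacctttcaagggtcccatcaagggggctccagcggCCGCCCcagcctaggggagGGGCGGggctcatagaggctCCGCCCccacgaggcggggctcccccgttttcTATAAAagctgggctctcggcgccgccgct

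The TATA box lay 30 to 25 bases before the GENCODE start, and the 3 GC boxes lay 101 to 96, 82 to 77 and 62 to 57 bases before it. Of 32851 RefSeq promoter windows of 300 bases, searched on both strands, 13.6% held a TATA box and 35.7% a GC box. The Sqstm1 window was 63.3% G and C, against a median of 52.7%. These letters held no antioxidant response element core of NRF2 (TGANNNNGC, in 41.3% of windows), no CACGTG of the TFEB element (7.15%), no ATF4 element (TGATGNAAT, 0.965%) and no AP-1 site (TGANTCA, 7.81%). A match or its absence describes these letters only.

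Each value below starts from a deposited whole number, taken as a count although the deposited values are named as CPM. Its 95% exact Poisson interval covers counting error only. The NT libraries held 10 (4.80 to 18.4) and 4 (1.09 to 10.2) Sqstm1 counts. Full amino acid starvation held 7 (2.81 to 14.4) and 15 (8.40 to 24.7), and cysteine starvation 57 (43.2 to 73.9) and 15 (8.40 to 24.7). In NT2 they were 93 (75.1 to 113.9) and 58 (44.0 to 75.0), and with cysteamine 149 (126 to 175) and 163 (139 to 190). Knockdown libraries held 202 (175 to 232) and 172 (147 to 200) and rescue libraries 113 (93.1 to 136) and 92 (74.2 to 113). The first experiment thus rests on far fewer counts. Totals over the 1399 transcripts ran from 25697 to 165747, and every listed value was at least 1.

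Levels are given as CPM, counts scaled to a common total of the listed transcripts and then by TMM, the trimmed mean of M values, in the order of replicates 1 and 2. Sqstm1 measured 358 and 392 CPM in NT, 476 and 659 CPM when all amino acids were withheld, and 941 and 376 CPM when cysteine alone was. It measured 368 and 281 CPM in NT2, 795 and 725 CPM with cysteamine, 1071 and 1140 CPM in rescue cells, and 1522 and 1571 CPM in knockdown cells. Both knockdown libraries lay above every other library, and both rescue libraries came next. In the second experiment no groups overlapped, while in the first the cysteine-starved libraries lay on either side of both full starvation libraries.

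**Figure D1:**
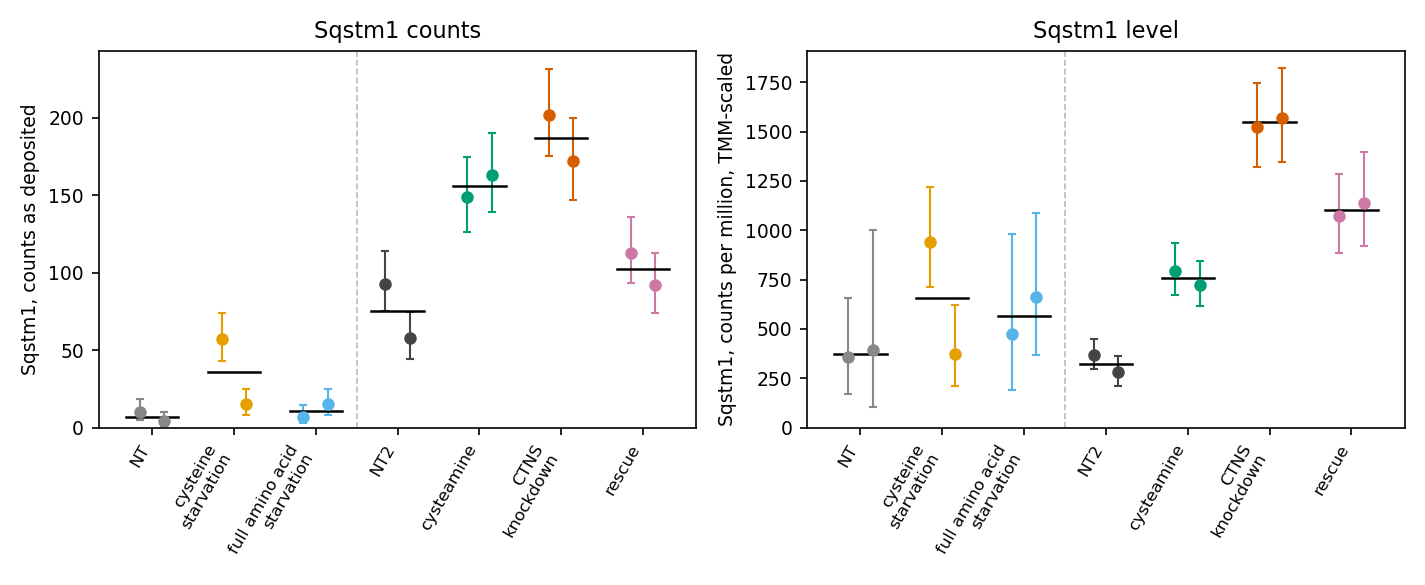
Sqstm1 in each of the 14 libraries, as the deposited count (left) and as TMM-scaled CPM (right), with points for libraries, bars for 95% Poisson intervals and lines for group means; a dashed line parts the experiments. The knockdown libraries stand highest at 1522 and 1571 CPM, and the interval of NT replicate 2, on 4 counts, is the widest relative to its value.

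Ordered by mean level, the groups were NT2 (324 ± 61.8 CPM; SD, n = 2, as for all group values), NT (375 ± 23.8), full amino acid starvation (568 ± 129), cysteine starvation (658 ± 400), cysteamine (760.1 ± 49.7), rescue (1105 ± 48.4) and knockdown (1546 ± 34.8). The libraries overlapped between NT2 and NT, between the starvations, and between cysteine starvation and cysteamine. NT and full amino acid starvation were 193 CPM apart with a larger SD of 129 and did not overlap. Cysteamine and rescue were 345 CPM apart with a larger SD of 49.7, and rescue and knockdown 441 CPM apart with a larger SD of 48.4. The order crosses experiments whose libraries differ in makeup, as described below.

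Per base of transcript length, Sqstm1 moved up the ranking of the 1385 transcripts with a known length. By count per kilobase it ranked 338 and 420 in the NT2 libraries, 178 and 199 with cysteamine, 112 and 102 in the rescue, and 71 and 69 in the knockdown. In the first experiment it ranked 369 and 328 in NT, 307 and 241 under full and 133 and 353 under cysteine starvation. These ranks need no scaling between libraries.

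The comparison of cysteamine with NT2 asks what follows when lysosomes are emptied of cystine. Sqstm1 was 2.32-fold higher with cysteamine, a log2 difference of 1.21 ± 0.25 (standard error, SE), with no overlap between libraries. By size of log2 difference it ranked 77 of 1399. In the same contrast, which the choice of Sqstm1 used, the quasi-likelihood test of edgeR, adjusted by Benjamini-Hochberg, called 10.5% of transcripts (77 higher and 70 lower), and nothing is read from that share for Sqstm1. The ratio of its summed counts was 2.30 (95% interval 1.89 to 2.81, counting error only).

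CTNS knockdown against NT2 asks what follows when the cystine exporter is lost. Here Sqstm1 was 4.72-fold higher, a log2 difference of 2.24 ± 0.24, with a count ratio of 4.69 (3.88 to 5.71). It ranked 73 of 1399 by log2 difference. The same test called 30.8% of transcripts in this contrast, 246 higher and 185 lower.

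The rescue asks whether a CTNS plasmid returns the cells to the untreated state. Against NT2, Sqstm1 in the rescue was 3.37-fold higher, a log2 difference of 1.75 ± 0.26, with a count ratio of 3.35 (2.699 to 4.16). It ranked 174 of 1399 by log2 difference, in a contrast where 31.5% of transcripts were called. Set directly against the knockdown, it was 1.40-fold lower, a log2 difference of -0.49 ± 0.24, with a count ratio of 0.713 (0.598 to 0.848, counting error only). The test called 0.643% of transcripts between rescue and knockdown, all of them higher in the rescue. Both rescue libraries lay below both knockdown libraries and above both cysteamine libraries. The 3 contrasts against NT2 share its libraries, so they are not independent of each other.

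Knockdown and cysteamine are set against each other because one blocks and the other promotes the exit of cystine, and Sqstm1 was higher with both than in NT2. The knockdown level was 2.03-fold that with cysteamine, a log2 difference of 1.02 ± 0.23 and a count ratio of 2.04 (1.75 to 2.38). Sqstm1 ranked 166 of 1399 by log2 difference in this contrast, where 24.7% of transcripts were called.

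The starvation libraries were not used in choosing Sqstm1, so the transcript could be tested there. The question was whether withholding cysteine alone, or all amino acids, changes it. Against NT, its log2 difference was 0.92 ± 0.47 in cysteine starvation (adjusted p = 0.345, edgeR's quasi-likelihood test, Benjamini-Hochberg adjustment over 1399 transcripts). The 941 CPM of replicate 1 carried that difference, and replicate 2, at 376 CPM, lay between the NT libraries. Without cysteine starvation replicate 1 the log2 difference was 0.030 (adjusted p = 0.970), and without replicate 2 it was 1.35 (adjusted p = 0.0521). Over the tested alternatives the adjusted p ran from 0.0521 to 0.970. The count ratio was 1.95 (1.09 to 3.74), from 72 counts in starved and 14 in NT libraries. That interval covers counting error only and leaves out the spread between the starved libraries.

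In full amino acid starvation the log2 difference of Sqstm1 from NT was 0.67 ± 0.56 (edgeR adjusted p = 0.781), with libraries that did not overlap. Its count ratio of 1.60 had an interval of 0.783 to 3.38 from 22 and 14 counts, which covers counting error only and includes 1. Between the starvations the log2 difference, cysteine minus full, was 0.25 ± 0.42 (edgeR adjusted p = 0.754), and the libraries overlapped. Without cysteine starvation replicate 1 it turned to -0.64. Scaled by totals alone, it was 1.33 and passed the test (adjusted p = 0.0418), a scaling that moved the median of all transcripts by 1.04. None of these p-values shows that Sqstm1 did not differ.

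The background of these tests was as follows. Against NT, edgeR called 0% of transcripts in cysteine starvation (0 called, 230 with an unadjusted p under 0.05, 67 by DESeq2 and 0 by limma). It called 0% in full amino acid starvation (0 called, 109 with an unadjusted p under 0.05, 0 by DESeq2 and 0 by limma). Between the starvations it called 15%, of which 36 were higher and 174 lower with cysteine starvation. The contrasts against NT share its libraries.

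Libraries differed in makeup along with Sqstm1. A class of 341 transcripts, called tracking transcripts here, had a count in NT relative to NT2 over 2 times the median ratio, a rule made after these data had been seen. Sqstm1 was not a member, at 1.24 times the median ratio. The class held 9.49% ± 0.145 of counts in NT2, 16.8% ± 0.807 with cysteamine, 40.6% ± 1.71 in rescue and 32.3% ± 0.495 in knockdown cells. In the first experiment it held 75.3% ± 16.2 in NT, 80.8% ± 2.88 under full and 47.6% ± 14.05 under cysteine starvation. The share was thus highest of the second experiment in the rescue, where Sqstm1 was below its knockdown level. The difference in share between NT and NT2 is fixed by the rule of the class, and so is the place of Sqstm1 outside it.

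With the tracking transcripts left out of the table and of the scaling, the log2 difference of Sqstm1 was 1.201 for cysteamine, 2.36 for the knockdown and 1.94 for the rescue, each against NT2, so it was about as large without them. Among the other 1058 transcripts, Sqstm1 ranked 8 by log2 difference with cysteamine, 1 in knockdown and 6 in rescue cells. The class was chosen for low NT2 counts relative to NT, so leaving it out favours a high rank against NT2. In knockdown against NT2 the median log2 difference was 1.32 in the class and -0.12 outside it. Over all 1399 transcripts Sqstm1 ranked 77 with cysteamine, 73 in knockdown and 174 in rescue cells. Its share of the counts outside the class was 551 ± 96.8 CPM in NT2, 1265 ± 89.8 CPM with cysteamine, 2280 ± 102 CPM in rescue and 3112 ± 91.0 CPM in knockdown cells. In the first experiment it was 995 ± 257 CPM in NT, 1445 ± 175 CPM under full and 1269 ± 730 CPM under cysteine starvation.

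**Figure D2:**
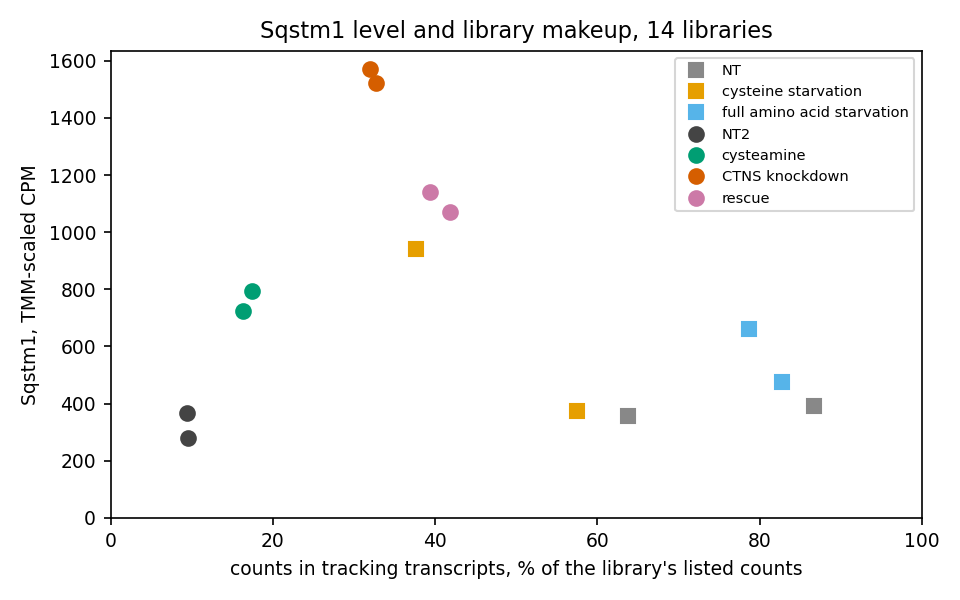
Sqstm1 level (TMM-scaled CPM) against the share of each library's listed counts in tracking transcripts (%), with squares for the first and circles for the second experiment and 1 point per library. The knockdown libraries, at 32.3% on average, stand above the rescue libraries at 40.6%; the share in NT and NT2 defined the class.

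Ratios within a library need no scaling factor, so Sqstm1 was also set against transcripts of general use. Per 100 counts of Actb, cytoplasmic actin, there were 5.58 ± 0.748 Sqstm1 counts in NT2, 10.6 ± 0.362 with cysteamine, 33.5 ± 3.78 in rescue and 42.5 ± 0.648 in knockdown cells. Per 100 counts of Gapdh, a glycolytic enzyme, there were 33.8 ± 6.13, 69.4 ± 9.42, 201 ± 1.26 and 337 ± 63.3 in the same order. Per 100 counts of 51 cytosolic ribosomal protein transcripts summed, there were 0.683 ± 0.129, 1.18 ± 0.0971, 3.28 ± 0.140 and 4.19 ± 0.154. By these 3 measures the order of the 4 groups was that of the scaled levels.

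A ratio shows unequal change, and the reference transcripts moved themselves. Gapdh was called lower in the knockdown (log2 difference -1.03) and in the rescue (-0.81), each against NT2 by edgeR. The first call was lost without NT2 replicate 1 (adjusted p = 0.0547) or knockdown replicate 2 (0.0852), and the second when any 1 of the 4 libraries was left out (0.0953 to 0.134). Against Tubb5, a beta tubulin called lower in the rescue (-1.02; lost without NT2 replicate 1, adjusted p = 0.0621, or rescue replicate 2, 0.0692), Sqstm1 stood at 106 ± 15.1 per 100 counts in the knockdown and 115 ± 11.4 in the rescue, so the direction between them turned (0.12 on the log2 scale). In the knockdown against cysteamine, edgeR called Gapdh (-1.23), Actb (-0.98) and the translation factor gene Eef1a1 (-0.90) lower. The Actb and Eef1a1 calls were not kept under upper quartile scaling. Eef1a1 was also called lower in the rescue against NT2 (-0.85), but not under RLE, another scaling. In the first experiment the ratio to Actb was 9.46 ± 1.501 in NT, 27.4 ± 6.18 under full and 16.0 ± 12.7 under cysteine starvation. The ratio to ribosomal protein transcripts was 1.75 ± 0.778, 2.03 ± 0.109 and 1.82 ± 1.10 in that order, and the difference of cysteine starvation from NT was then -0.015 on the log2 scale. Reads of these families can be shared with processed pseudogenes, so their values are uncertain.

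**Figure D3:**
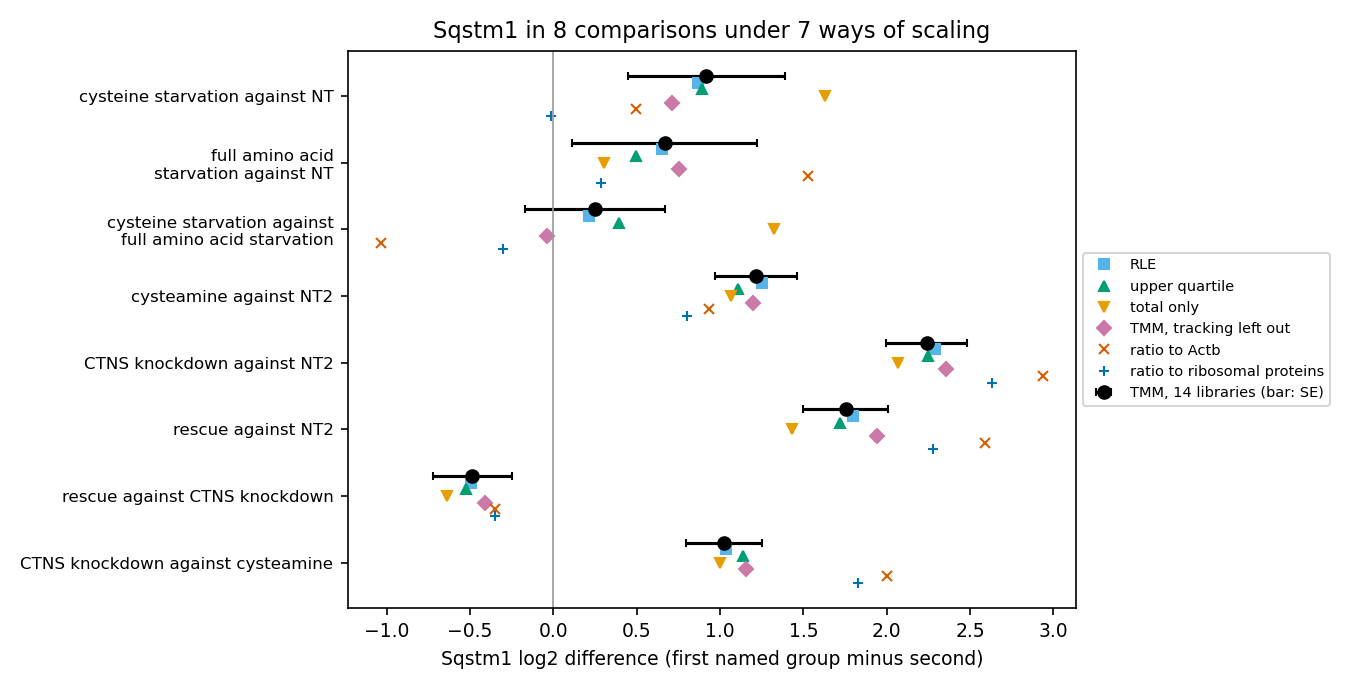
Log2 difference of Sqstm1 (first named group minus second) in the 8 comparisons under 7 ways of scaling, with black points and SE bars for TMM over all 14 libraries. The contrasts against NT2 are above 0 under each scaling drawn, and those of the first experiment spread from -1.03 to 1.63.

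Marker transcripts were used to check the labelled cell type and moved between groups too. Of 14 fibroblast markers 9 were listed, among them the collagens Col1a1, Col1a2 and Col3a1 and fibronectin. Their summed level was 35701 to 38796 CPM in NT2, 22538 to 23253 with cysteamine, 11909 in both knockdown libraries and 19669 to 20264 in the rescue. It was 16361 to 26288 in NT, 16334 to 26159 under full and 32876 to 36048 under cysteine starvation. In the second experiment Sqstm1 and this sum thus ran in opposite order. Of 7 epithelial markers only Cdh1 was listed, at 3.96 to 24.2 CPM in NT2, 8.90 to 26.7 with cysteamine, 24.8 to 56.9 in rescue and 54.8 to 90.4 in knockdown cells. Of 8 muscle markers only Ttn was listed and of 5 pancreatic ones only Ctrb1, and no endothelial, leukocyte or neural marker was. Ttn measured 99.0 to 194 CPM in NT2, 218 to 246 with cysteamine, 411 to 459 in knockdown and 569 to 743 in rescue cells, and 686 to 716 CPM in NT. Ctrb1 measured 11.9 to 14.5, 53.4 to 71.2, 249 to 347, 409 to 427 and 215 to 980 CPM in the same order. Both were higher in the rescue than in the knockdown, unlike Sqstm1. The part of these transcripts in the Sqstm1 result was not tested.

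Pathway genes around Sqstm1 came from 6 lists written with earlier results of these data known, and 46 of their members were listed in the tables. Measured were 7 of 64 autophagy genes, 6 of 53 KEAP1-NRF2 genes and 4 of 31 p62 signalling partners. Of the ATF4, ubiquitin and lysosome lists, 8 of 26, 15 of 46 and 7 of 56 were measured. Most of each list was thus not seen. No KEAP1, NRF2 or LC3 transcript was among the measured members of these lists. Each member was tested by edgeR's quasi-likelihood test with adjustment over all 1399 transcripts, which is the source of each adjusted p that follows. Knockdown against cysteamine was added for them after the data had been seen.

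On the KEAP1-NRF2 list 3 genes rose with cysteamine. Of 6 measured, 3 were called higher and 0 lower, against 10.5% of all transcripts called in that contrast. The list was written with earlier results of these data known. Its shares and the p-values of its members, here and in the contrasts below, are therefore descriptions of these libraries only. All 6 were above 0, and the median log2 difference was 1.01, against 0.13 over all transcripts. The peroxidase gene Prdx1 measured 301 and 315 CPM in NT2 and 635 and 689 with cysteamine, without overlap (1.11 ± 0.18, adjusted p = 0.00141). The ferritin heavy chain gene Fth1, which stores iron, measured 1180 and 896 CPM in NT2 and 2274 and 2446 with cysteamine (1.18 ± 0.22, adjusted p = 0.00365). The glutathione conjugate exporter gene Abcc1 measured 131 and 102 CPM in NT2 and 288 and 311 with cysteamine (1.35 ± 0.26, adjusted p = 0.00365). Gpx2, a glutathione peroxidase gene and a tracking transcript as defined above, stood at 0.91 ± 0.35 (adjusted p = 0.112).

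These calls depended on single libraries and on the test used. Prdx1 did not pass without cysteamine replicate 2 (adjusted p = 0.0501), and over 11 alternatives its adjusted p ran from 9.07e-07 to 0.366. Fth1 did not pass without NT2 replicate 2 (0.109) or cysteamine replicate 2 (0.0678), with a range from 3.41e-08 to 0.366. Abcc1 did not pass without NT2 replicate 2 (0.0897), cysteamine replicate 1 (0.0561) or cysteamine replicate 2 (0.0849), with a range from 4.22e-05 to 0.360. The upper end of each range came from limma on log2(CPM + 1), which called 0 of all transcripts in this contrast. Fth1 also did not pass in edgeR with no scaling beyond the total (adjusted p = 0.101). The log2 differences of all 3 lay between 0.95 and 1.55 under these alternatives.

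In the knockdown, where Sqstm1 was highest, none of these 3 was called against NT2. Prdx1 measured 286 and 201 CPM there (-0.32 ± 0.22 against NT2, adjusted p = 0.300), Fth1 1288 and 1169 CPM (0.24 ± 0.23, adjusted p = 0.453) and Abcc1 203 and 155 CPM (0.62 ± 0.29, adjusted p = 0.119). Of the 6, Gpx2 alone was called higher in the knockdown, a share below the 30.8% of all transcripts called there. It measured 119 and 136 CPM in NT2 and 542 and 584 in the knockdown (2.14 ± 0.34, adjusted p = 3.85e-04), and NT against NT2 had defined its class. Set directly against cysteamine, knockdown was lower for Prdx1 (-1.42 ± 0.21, adjusted p = 6.51e-04) and Fth1 (-0.94 ± 0.23, adjusted p = 0.00955) and higher for Gpx2 (1.23 ± 0.32, adjusted p = 0.0127). Sqstm1 stood at 1.02 in that contrast. The Fth1 and Gpx2 calls were lost when any 1 of the 4 libraries was left out, at adjusted p from 0.0503 to 0.0918 and from 0.0661 to 0.112, with ranges over all alternatives of 5.80e-05 to 0.309 and 0.00109 to 0.238.

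In the rescue the KEAP1-NRF2 list had 3 of 6 members higher and 1 lower against NT2, where 31.5% of all transcripts were called, and its median was 0.84. Gpx2 (2.58 ± 0.34, adjusted p = 4.97e-05), Abcc1 (1.13 ± 0.29, adjusted p = 0.00749) and the tracking transcript Abcc5, another exporter of the family (1.49 ± 0.50, adjusted p = 0.0322), rose. Cul3, the ubiquitin ligase scaffold that works with KEAP1, fell, from 198 and 165 CPM in NT2 to 104 and 49.5 in the rescue (-1.18 ± 0.40, adjusted p = 0.0341). The Abcc5 call was lost when any 1 of the 4 libraries was left out (adjusted p from 0.0631 to 0.257), and that of Cul3 without NT2 replicate 1 (0.154), NT2 replicate 2 (0.0603) or rescue replicate 2 (0.242). The Abcc1 call was lost without NT2 replicate 2 (0.0724) or rescue replicate 2 (0.0504). Between rescue and knockdown no member of the list was called. Between the starvations Fth1 was higher with cysteine starvation (1.84 ± 0.45, adjusted p = 0.0137), and Gpx2 (-2.21 ± 0.32, adjusted p = 6.51e-04) and Abcc5 (-1.82 ± 0.53, adjusted p = 0.0314) were lower. The full starvation libraries held only 3 and 6 Fth1 counts. With tracking transcripts left out, Fth1 did not pass (1.54, adjusted p = 0.123). The Fth1 call was lost without 3 of the 4 libraries, all but cysteine starvation replicate 2, and the Abcc5 call without the same 3 (adjusted p up to 0.118 and 0.266). Against NT neither starvation gave a call in this list.

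Among other genes of the autophagy machinery, none of the 7 measured was called with cysteamine or in the knockdown, where 10.5% and 30.8% of all transcripts were, and the list's medians were 0.18 and -0.12, against 0.13 and 0.09 over all transcripts. The segregase gene Vcp, which unfolds ubiquitinated proteins, measured 883 and 1089 CPM in NT2, 1153 and 1076 with cysteamine and 927 and 886 in the knockdown. The ferritin receptor gene Ncoa4, which delivers ferritin to autophagosomes, stood at 0.31 ± 0.26 with cysteamine and -0.41 ± 0.31 in the knockdown. Wdfy3, which binds p62 at protein aggregates, stood at -0.61 ± 0.26 and -0.33 ± 0.28. The mitophagy receptor gene Phb2 stood at 0.48 ± 0.19 and -0.016 ± 0.22. In the rescue (31.5% of all transcripts called) 1 of the 7 was called, Atg101, part of the kinase complex that starts autophagy and a tracking transcript (1.85 ± 0.51, adjusted p = 0.0114), which did not pass without NT2 replicate 1 (0.0868) or rescue replicate 2 (0.188).

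The p62 signalling partners had 4 listed members, with Wdfy3 counted here as well. None was called against NT2 or NT. Mtor, the nutrient-sensing kinase that p62 binds through Raptor, measured 174 and 126 CPM in NT2, 117 and 97.9 with cysteamine and 121 and 82.2 in the knockdown. Ikbkb, the kinase that activates NF-kB, was higher in the knockdown than with cysteamine (1.24 ± 0.40, adjusted p = 0.0359), at 97.9 and 100.5 against 37.4 and 44.5 CPM, a call lost when any 1 of the 4 libraries was left out (adjusted p from 0.115 to 0.144). Cyld, a deubiquitinase, lay between 91.3 and 136 CPM in the NT2, cysteamine and knockdown libraries.

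The ATF4 and stress list stood farthest above 0 in cysteine starvation. In cysteine starvation against NT all 8 members were above 0 with a median of 1.70, against 0.01 over all transcripts, and 0 were called. In full amino acid starvation all 8 were above 0, with a median of 0.92 and 0 called. Atf4 itself measured 466 and 392 CPM in NT and 1172 and 726 in cysteine starvation (1.14 ± 0.37, adjusted p = 0.123). Slc3a2, the shared heavy chain of the cystine importer, measured 35.8 and 196 CPM in NT and 693 and 451 in cysteine starvation (2.87 ± 0.67, adjusted p = 0.0740). Unlike Sqstm1, both transcripts were higher in each cysteine-starved library than in either NT library. The NT libraries held only 13 and 4 counts of Atf4 and 1 and 2 of Slc3a2, where 1 is the smallest listed value. Phgdh (11 and 1), Nars (10 and 1) and Mthfd2 (2 and 1) also had few counts there. The list's medians against NT thus rest on few counts.

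In the knockdown the ATF4 list had 0 of 8 members called, against 30.8% of all transcripts, and a median of -0.10. Atf4 measured 622 and 610 CPM in NT2, 527 and 429 in the knockdown and 313 and 347 in the rescue, where it was called lower (-0.91 ± 0.24, adjusted p = 0.00908). That call was lost without NT2 replicate 1 (adjusted p = 0.0579) or rescue replicate 1 (0.0890). Vegfa, a growth factor gene, was called higher in the rescue against NT2 (1.30 ± 0.26, adjusted p = 0.00130) and in cysteine against full starvation (1.80 ± 0.45, adjusted p = 0.0148), and the alanyl-tRNA synthetase gene Aars in the knockdown against cysteamine (0.80 ± 0.19, adjusted p = 0.00970). The first Vegfa call was lost without rescue replicate 1 (0.0552), and the second without cysteine starvation replicate 1 (0.123) or full starvation replicate 2 (0.225). That of Aars was lost when any 1 of the 4 libraries was left out (0.0561 to 0.1002). With cysteamine the median was 0.16 and 0 of 8 were called, against 10.5% of all transcripts.

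**Figure D4:**
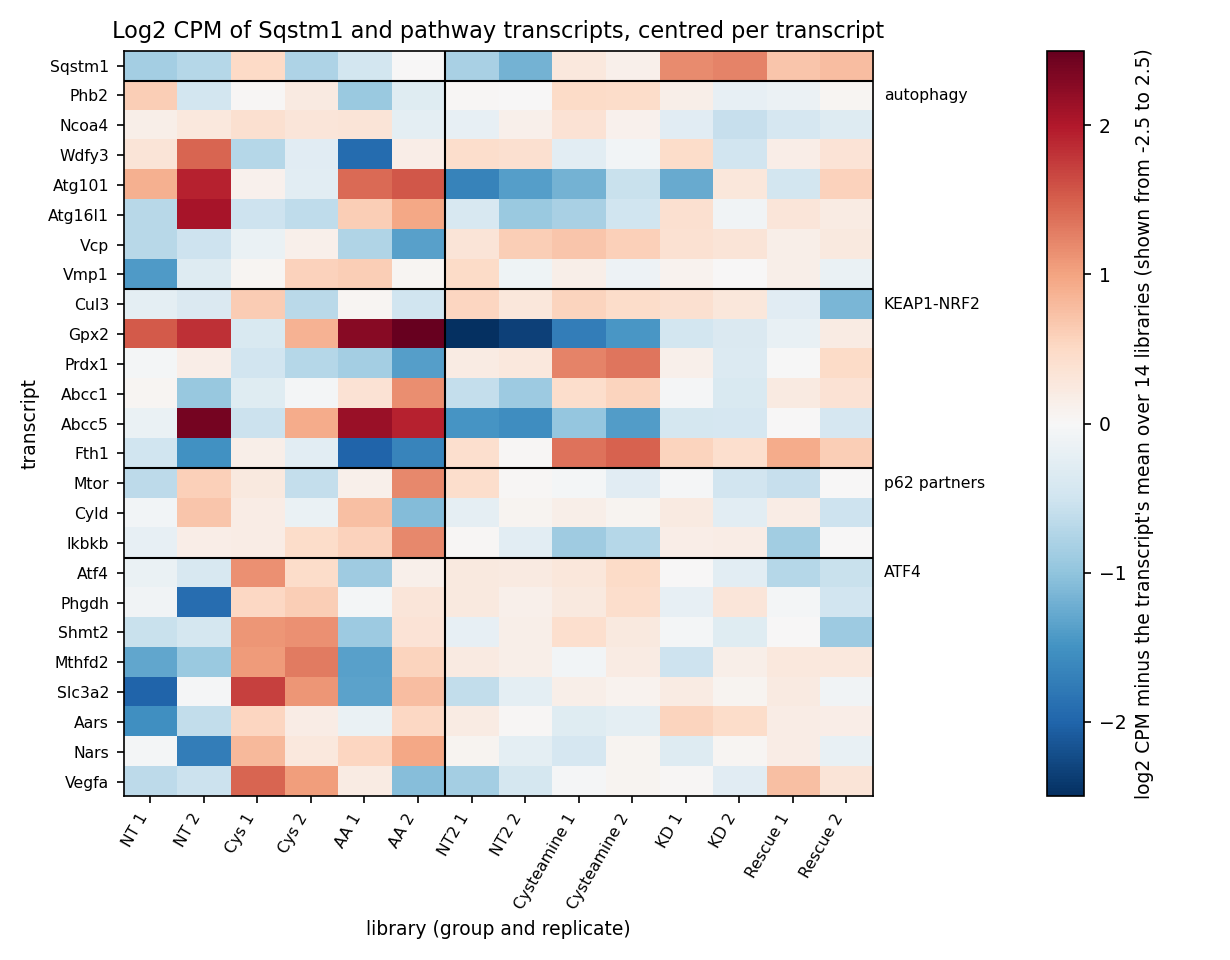
Log2 CPM of Sqstm1 and of 24 pathway transcripts (rows) in the 14 libraries (columns), each centred on its own mean and shown from -2.5 to 2.5; horizontal lines part the lists and the vertical line the experiments. Sqstm1 is reddest in the knockdown, Prdx1 and Fth1 with cysteamine, and most ATF4 transcripts in cysteine starvation.

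Genes that make ubiquitin and the proteasome, the other route for p62 cargo, were mostly not called. Of 15 measured, 0 were higher and 1 lower in the knockdown against NT2, where 30.8% of all transcripts were called, and the median was 0.17. The one that fell was Rps27a, which encodes ubiquitin fused to a ribosomal protein, from 523 and 639 to 362 and 256 CPM (-0.89 ± 0.25, adjusted p = 0.0144), and it did not pass without NT2 replicate 2 (0.110) or knockdown replicate 2 (0.1499). Psmd11, Psmb3 and Psmc3, proteasome subunits, stood at 0.77 ± 0.29, 0.65 ± 0.28 and 0.62 ± 0.26 (adjusted p = 0.0534, 0.0859 and 0.0859). With cysteamine 0 of 15 were called (10.5% of all transcripts). In the rescue against NT2, 2 of 15 were lower (31.5% of all transcripts called), Rps27a (-1.37 ± 0.29, adjusted p = 0.00193) and the polyubiquitin gene Ubb (-1.196 ± 0.24, adjusted p = 0.00135). Knockdown against cysteamine (24.7% of all transcripts called) had 3 lower, Rps27a (-1.30 ± 0.25), Ubb (-0.84 ± 0.20) and Psmd7 (-0.99 ± 0.31), and Usp9x was lower in cysteine than in full starvation (-1.05 ± 0.33, adjusted p = 0.0406). The Psmd7 and Usp9x calls were lost when any 1 of the 4 libraries was left out (0.0845 to 0.164 and 0.0587 to 0.302), and that of Ubb against cysteamine without either cysteamine library or knockdown replicate 1 (0.0625 to 0.120). Ubb, Psmd7 and Usp9x were named after their values had been seen.

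Lysosomal genes, many of them TFEB targets, had 7 measured members, of which 2 were called in the knockdown against NT2, near the 30.8% of all transcripts. There Ctsl, a cathepsin protease gene, fell from 408 and 382 to 294 and 192 CPM (-0.68 ± 0.23, adjusted p = 0.0312). Fnip2, a partner of folliculin and a tracking transcript, rose from 83.1 and 92.0 to 143 and 183 CPM (0.88 ± 0.31, adjusted p = 0.0392). The Ctsl call was lost without NT2 replicate 1 (0.153), NT2 replicate 2 (0.0830) or knockdown replicate 2 (0.277), and that of Fnip2 when any 1 of the 4 libraries was left out (0.0667 to 0.220). The acid glucosidase gene Gaa and the proton pump subunit gene Atp6v1c1 stood at 0.38 ± 0.22 and 0.43 ± 0.32. The list's median was 0.22, against 0.09 over all transcripts. Set against cysteamine, knockdown was lower for Ctsl (-0.68 ± 0.23, adjusted p = 0.0416), in a contrast with 24.7% of all transcripts called, and the call was lost without either cysteamine library or knockdown replicate 2 (0.124 to 0.306). With cysteamine 0 of 7 were called (10.5% of all transcripts) and the median was -0.07. In the rescue (31.5%) Fnip2 was called higher (1.01 ± 0.32, adjusted p = 0.0236), a call lost when any 1 of the 4 libraries was left out (0.0579 to 0.201).

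Transcripts whose pattern was most like that of Sqstm1 were ranked by the root mean square difference of centred log2 CPM, among 896 others with a mean count of at least 20. Over the 14 libraries, which share the makeup differences described above, they were Brd2 (0.48 on the log2 scale), Kmt2d (0.49), Camsap1 (0.54), Aff1 (0.54), Prrc2c (0.56) and Spen (0.56), none of them tracking. Brd2 encodes a reader of acetylated histones and Kmt2d a histone methyltransferase. The log2 difference of Brd2 was 0.94 with cysteamine and 0.92 in the knockdown against NT2, and that of Kmt2d 0.12 and 1.09. All 6 had a smaller log2 difference than Sqstm1 in the knockdown, between 0.42 and 1.09.

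Over the 8 libraries of the second experiment the nearest were Gpatch4 (0.25), Fbxl14 (0.35), Edem3 (0.36), Pole (0.36), Gnmt (0.36) and Traf7 (0.36), and all 6 were tracking transcripts. Gpatch4 had log2 differences against NT2 of 1.46 with cysteamine, 1.91 in knockdown and 1.86 in rescue cells, where Sqstm1 had 1.21, 2.24 and 1.75. The nearest outside the class, chosen after the data had been seen, was Srek1, a splicing regulator gene (0.40, rank 14), with 0.68, 1.34 and 1.01. Of the KEAP1-NRF2, autophagy and ATF4 members, Ncoa4, Atg101, Atg16l1, Vmp1 and Cul3 had too low a mean count to be ranked. Among those ranked over the 8 libraries, the tracking transcripts Gpx2 (29) and Abcc5 (30) came closest. Over the 14 libraries Aars came closest (62), and Gpx2 and Abcc5 ranked 856 and 836 of 896.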

How the data were processed

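Total RNA was extracted from MEFs with TRIzol, captured on oligo(dT) beads and size-selected to short fragments before library preparation, per the labels' protocols. GRCm39, STAR 2.7.10a, Bowtie 1.2.3, cutadapt 2.8 and bcl2fastq 2.20.0.422 are named in the submitters' processing notes. Counting tool, annotation and strand setting were not stated in the labels. The authors deposited 1 table of counts per library, whole numbers per transcript and not normalized. All tables list the same 1399 transcripts with a smallest value of 1, so losses to 0 cannot be seen and totals (25697 to 165747) are not depths. A symbol was found for 1385 by GENCODE release M21 on GRCm38, the build of every coordinate given.

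Samples were grouped by their labels. In R 4.3.3, edgeR 4.0.16 was fitted to the 14 libraries as 7 group means (7 residual degrees of freedom) after TMM scaling. Its quasi-likelihood test was two-sided, adjusted over 1399 transcripts, with a threshold of 0.05. It was also run on simulated data, but no outcome is given here and nothing is read from that run. limma 3.58.1 on log2(CPM + 1) and DESeq2 1.42.0 were alternatives, as were other scalings, subsets of transcripts and libraries, a replicate block and within-library ratios. Likeness used log2 CPM with a prior count of 2.

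Sqstm1, the gene lists and the tracking class were chosen with earlier results of these data known. Named genes were Sqstm1, the measured members of the 4 lists nearest to it, up to 4 members of the ubiquitin and lysosome lists with the smallest p in the knockdown, the 6 most alike transcripts over 14 and over 8 libraries, and the reference transcripts.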

Additional observations from a re-analysis of the deposited data

How the results depend on the processing

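Sqstm1 kept its sign against NT2 (cysteamine, knockdown, rescue) under every scaling, test, subset and left-out library run. The choice of Sqstm1 used the cysteamine, knockdown and NT2 libraries, so a steady sign was partly fixed by that choice. Leaving out 1 library gave ranges of 1.04 to 1.43, 2.07 to 2.46 and 1.58 to 1.97 on the log2 scale, -0.53 to -0.43 for rescue against knockdown, 0.96 to 1.09 for knockdown against cysteamine, 0.030 to 1.35 for cysteine starvation and 0.37 to 0.84 for full amino acid starvation against NT, and -0.64 to 0.68 between the starvations. For values that moved, the cause was not tested. With no scaling beyond the total the difference was 1.33 between the starvations (adjusted p = 0.0418), 1.43 for rescue against NT2 and -0.64 for rescue against knockdown. That setting moved the median of all transcripts by 0.68, -0.36 and 1.04 in the 3 starvation comparisons, by -0.15, -0.17 and -0.33 for cysteamine, knockdown and rescue against NT2, and by -0.15 for rescue against knockdown. Upper quartile scaling gave 1.14 for knockdown against cysteamine. Without tracking transcripts the values were -0.040 between the starvations, -0.41 for rescue against knockdown and 1.16 for knockdown against cysteamine, and with a mean count of at least 20 they were -8.86e-04 between the starvations and 1.13 for knockdown against cysteamine.

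As ratios to Gapdh, Actb, Eef1a1, Tubb5 and ribosomal protein transcripts, in that order, the log2 differences were 3.32, 2.94, 2.99, 2.68 and 2.63 for knockdown against NT2 and 2.58, 2.59, 2.63, 2.7996 and 2.28 for rescue against NT2. They were -0.74, -0.35, -0.35, 0.12 and -0.35 for rescue against knockdown and 2.28, 2.00, 1.92, 1.62 and 1.83 for knockdown against cysteamine. In knockdown against cysteamine, Gapdh, Actb and Eef1a1 were themselves called lower, as given above. Cysteamine against NT2 moved to 0.93 with Actb and 0.80 with ribosomal protein transcripts. Cysteine starvation against NT moved to -0.015 with ribosomal protein transcripts, and full amino acid starvation against NT to 2.29, 1.53, 1.54 and 0.29 with Gapdh, Actb, Tubb5 and ribosomal protein transcripts. Between the starvations the ratios to Gapdh, Actb and Tubb5 gave -1.47, -1.03 and -0.95.

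The labels tie same-numbered libraries by nothing but the number. The correlation of their deviations ran from -0.214 to 0.287 in the first experiment and from 0.092 to 0.281 in the second, where 5 of 6 pairs of groups were above 0.1; with 2 numbers a group this is a hint from the data only, and the block is kept as an alternative. With the replicate block Sqstm1 stood at 1.01, 0.88 and 0.13 in the starvation comparisons, 1.21, 2.24 and 1.75 against NT2, -0.49 for rescue against knockdown and 1.02 for knockdown against cysteamine. The replicate block called 6 list members in cysteine starvation against NT, 6 with cysteamine and 8 in the knockdown against NT2, where the reported counts were 0, 3 and 4. It called 80 transcripts in all in cysteine starvation against NT, 269 with cysteamine and 520 in the knockdown. DESeq2 called 4 list members in cysteine starvation against NT and 2 in the knockdown. limma called 0 with cysteamine, 1 in the knockdown and 1 in rescue against NT2 (reported 10), and 0 in knockdown against cysteamine (reported 9). Without tracking transcripts, an alternative chosen after seeing the data, 1 was called between the starvations (reported 5), 10 with cysteamine and 10 in the knockdown. Of the 6 transcripts most like Sqstm1, 4 over 14 libraries and 6 over 8 were shared with scaling by totals alone. In the first experiment the 4 to 57 Sqstm1 counts per library limit what could be seen.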
